A study of Mus musculus with 16 samples.

Results

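The 9 genes described here are those of microglia and of complement C1q: Cx3cr1, P2ry12, Tmem119, Csf1r, Trem2, Aif1, C1qa, C1qb and C1qc. They were chosen by name, as the genes of the count table whose Ensembl identifiers carry these symbols in the GENCODE mouse annotation, and all 9 of 9 were found among the 35328 genes of the table and passed the filter on low counts. RNA-Seq was run on the dorsal hippocampus of 16 male C57Bl6/J mice in 4 groups of 4, to ask how regular caffeine intake changes hippocampal gene expression at rest and after learning. Home cage water mice drank water and stayed in their cages. Home cage caffeine mice drank 0.3 g/L caffeine for 2 weeks, starting at 8 to 9 weeks of age. Learning water and learning caffeine mice had the same drinks and were taken 1 hour after the last of 3 training days in the Morris water maze, where mice learn to find a hidden platform. All groups were wild type and carried no transgene. A difference between learning and home cage mice holds everything that training brings (handling, swimming and the task), and these cannot be told apart. Each mouse is named here by its group and the number in its label.

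Microglia are the resident macrophages of the brain, and their survival depends on the receptor Csf1r and its ligands Csf1 and Il34. Cx3cr1 receives the neuronal chemokine Cx3cl1, P2ry12 senses ADP and guides the processes of microglia, Tmem119 is a membrane protein that marks resident microglia, Trem2 is a lipid receptor that signals through Tyrobp, and Aif1 encodes the actin-binding protein Iba1. C1qa, C1qb and C1qc encode the chains of C1q, the recognition molecule that starts the classical complement pathway, and in the brain C1q comes mostly from microglia and is known for tagging synapses for removal.

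Depth was ample for these genes. The libraries held 23078094 to 49949281 counts on genes (median 36437284.5), and the member with the fewest reads, Aif1, had 134 to 272 counts per mouse, whereas Csf1r had 2583 to 5395. Counting error alone was 8.64% of the lowest Aif1 count and 1.97% of the lowest Csf1r count. Levels are given as CPM, the usual count per library size, with library sizes scaled by TMM, the trimmed mean method of edgeR. Some libraries stood apart from their groups. Home cage caffeine mouse 17 had the highest mitochondrial share (4.49%, against 3.23 to 3.89% in the others), learning water mouse 24 had the highest summed level of 7 oligodendrocyte genes, and home cage water mouse 20 had the highest summed level of 8 choroid plexus genes (2330 CPM) and the lowest sum of the 9 microglia genes among home cage mice (385 CPM). Calls of the 9 genes after learning, on average and under caffeine, are given with and without them.

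All 9 genes were read in every mouse, and the C1q chains were the most abundant per unit of length. Because reads scale with transcript length, levels were compared between genes only as CPM per kilobase of the principal transcript. On that scale, C1qa stood at 49.0 ± 5.56 (SD, n = 16 mice), C1qb at 44.1 ± 4.45 and C1qc at 38.9 ± 4.00. Csf1r followed at 23.1 ± 1.42, P2ry12 at 19.3 ± 1.75, Trem2 at 14.6 ± 1.56, Cx3cr1 at 13.6 ± 1.22 and Tmem119 at 12.4 ± 0.938, and Aif1 was lowest at 6.46 ± 1.03. Neighbours in this order overlapped in their ranges over the 16 mice, except that C1qc (lowest 31.9) lay above Csf1r (highest 24.8) and Tmem119 (lowest 10.4) above Aif1 (highest 8.26). This order depends on the transcript used. Per kilobase of all annotated exons, C1qc averaged 24.2 CPM and Csf1r 18.8 CPM, and their ranges overlapped. On that scale Trem2, at 3.21 CPM per kilobase, averaged below Aif1, at 3.69.

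The genes lie at 7 places in mm10. C1qb (chr4:136880129-136886187), C1qc (chr4:136889804-136893065) and C1qa (chr4:136895917-136898803) are neighbours on the minus strand within 18675 bases, and no other gene's exons overlap them. Trem2 (chr17:48346401-48354147, plus strand) and Aif1 (chr17:35170991-35176068, minus strand) share a chromosome only. Cx3cr1 (chr9:119901616-120069879) and Tmem119 (chr5:113793729-113800516) are on the minus strand, and the Cx3cr1 exons overlap those of the antisense gene Gm33858, which had 391 counts over all mice against 35004 for Cx3cr1. P2ry12 (chr3:59216272-59262871) overlaps exons of Med12l, and Csf1r overlaps exons of Hmgxb3, each on the opposite strand. The libraries keep strand, but the strand setting of the counting is not given in the sources used here, so reads of P2ry12 and Csf1r may be mixed with, or have lost some to, those partners. The identifiers are ENSMUSG00000052336 (Cx3cr1), ENSMUSG00000036353 (P2ry12), ENSMUSG00000054675 (Tmem119), ENSMUSG00000024621 (Csf1r), ENSMUSG00000023992 (Trem2), ENSMUSG00000024397 (Aif1), ENSMUSG00000036887 (C1qa), ENSMUSG00000036905 (C1qb) and ENSMUSG00000036896 (C1qc).

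Of the 9 genes, 6 matched an entry among the RefSeq promoters (GRCm38.p6): Cx3cr1, P2ry12, Trem2, Aif1, C1qb and C1qc. Tmem119, Csf1r and C1qa had none. The 250 bases before each start were searched on both strands for GAGGAA, the core recognised by the macrophage factor PU.1 (gene Spi1), and for a joint site of PU.1 and the interferon regulatory factors (GGAA and TGAAA set 1 base apart). GAGGAA was present in 4 of the 6 windows, those of Trem2, Aif1, C1qb and C1qc, and in 23.1% of all 27025 promoter windows of the same length. The joint site was in none of the 6 and in 0.636% of all, and neither motif was found before Cx3cr1 or P2ry12. All 250 bases of the Cx3cr1 window lie in annotated exons of Cx3cr1, and 151 bases of the C1qc window in those of C1qc. In C1qc the match lay 193 to 188 bases before the start on the minus strand relative to the gene. The windows of Trem2 (chr17:48346151-48346400, plus strand), Aif1 (chr17:35176053-35176302, minus strand) and C1qb (chr4:136886201-136886450, minus strand) are shown because they hold the matches nearest to the start. Each is written 5′ to 3′ along the gene, and capitals mark GAGGAA or its reverse complement. The last 16 bases of the Aif1 window, its match included, lie in an exon of another annotated transcript.
Trem2: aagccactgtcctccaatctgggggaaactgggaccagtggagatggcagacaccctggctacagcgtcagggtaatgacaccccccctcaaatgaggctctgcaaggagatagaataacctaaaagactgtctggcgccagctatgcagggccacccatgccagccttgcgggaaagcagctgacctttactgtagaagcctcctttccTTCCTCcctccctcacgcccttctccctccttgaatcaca
Aif1: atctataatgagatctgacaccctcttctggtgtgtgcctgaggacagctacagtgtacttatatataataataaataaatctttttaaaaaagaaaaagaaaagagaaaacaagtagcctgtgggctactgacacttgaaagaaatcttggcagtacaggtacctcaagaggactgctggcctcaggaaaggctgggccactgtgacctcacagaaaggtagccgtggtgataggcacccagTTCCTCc
C1qb: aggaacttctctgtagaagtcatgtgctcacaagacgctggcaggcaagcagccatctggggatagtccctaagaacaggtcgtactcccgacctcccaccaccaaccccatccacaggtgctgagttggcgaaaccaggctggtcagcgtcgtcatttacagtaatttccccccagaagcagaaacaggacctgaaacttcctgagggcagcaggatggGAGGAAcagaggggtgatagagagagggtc
The match ran from 40 to 35 bases before the start in Trem2, from 7 to 2 in Aif1 and from 30 to 25 in C1qb.

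Averaged over water and caffeine, 6 of the 9 genes fell after learning (Cx3cr1, Trem2, Aif1, C1qa, C1qb and C1qc), and P2ry12, Tmem119 and Csf1r did not pass the test. Once the dependence of each library on the length and GC content of transcripts was taken out, 1 of the 9 was called, Cx3cr1, and the other 5 calls were lost (2 were called with the longest transcript of each gene in place of the principal one). Over all 17830 genes tested, 6.71% were called lower in this comparison before the correction, 7.81% higher, and 5.15% lower after it. The falls were small even without the correction, with fitted levels that fell by 10.8 to 18.9%. Because whole tissue was sequenced, fewer microglia and less of these RNAs per cell cannot be told apart. The median log2 fold change was -0.19 over the 9 genes and -0.01 over all genes. Calls were made at an adjusted p under 0.1 with the quasi-likelihood test of edgeR, adjusted over all genes by the Benjamini-Hochberg method.

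Cx3cr1, the fractalkine receptor, measured 66.1, 67.2, 63.5 and 58.6 CPM in home cage water mice and 67.5, 68.5, 68.5 and 62.1 CPM in home cage caffeine mice. After learning it measured 57.1, 59.7, 52.7 and 61.8 CPM under water and 55.7, 59.2, 58.2 and 51.5 CPM under caffeine. The ranges of the 8 home cage and 8 learning mice overlapped only through home cage water mouse 20 at 58.6 CPM and the learning mice between 59.2 and 61.8 CPM. Its average response was a log2 fold change of -0.19 (SE 0.04, adjusted p = 0.0130), and an exact two-sided permutation test of 8 mice against 8 gave p = 0.000932. With the length and GC correction the response was -0.23 (adjusted p = 0.00184).

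Trem2 and Aif1 were called lower too, but not with the length and GC correction on principal transcripts. Trem2 measured 16.5, 16.9, 16.6 and 15.6 CPM in home cage water mice and 17.65, 17.1, 15.2 and 20.2 CPM in home cage caffeine mice. In learning water mice Trem2 measured 15.5, 14.7, 15.9 and 15.2 CPM, and in learning caffeine mice 12.9, 15.9, 14.2 and 13.97 CPM. Home cage caffeine mouse 17 had the highest Trem2 level of all mice, and the 2 conditions overlapped between 15.2 and 15.9 CPM. The average response of Trem2 was -0.20 on the log2 scale (SE 0.06, adjusted p = 0.0422, exact permutation p = 0.00202 for 8 mice against 8). Aif1 measured 7.11, 5.16, 6.24 and 5.13 CPM in home cage water mice and 6.59, 5.77, 6.70 and 7.23 CPM in home cage caffeine mice. After learning, Aif1 measured 5.77, 5.45, 5.37 and 5.34 CPM under water and 4.48, 4.93, 5.00 and 4.15 CPM under caffeine. Only home cage water mice 8 and 20 lay within the range of the learning mice, and home cage caffeine mouse 9 and learning water mouse 24 were both at 5.77 CPM. Aif1 had the largest fall of the 9 genes, -0.30 on the log2 scale (SE 0.08, adjusted p = 0.0278, exact permutation p = 0.00575). With the correction Trem2 had -0.08 (adjusted p = 0.365) and Aif1 -0.20 (adjusted p = 0.121).

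The C1q chains were called lower, likewise only without the length and GC correction. C1qa measured 58.6, 48.3, 51.5 and 51.5 CPM in home cage water mice and 57.5, 53.3, 51.6 and 64.1 CPM in home cage caffeine mice, and after learning 49.7, 50.2, 45.7 and 48.2 CPM under water and 50.0, 51.4, 44.0 and 39.8 CPM under caffeine. The C1qb levels were 50.5, 46.6, 49.0 and 46.6 CPM in home cage water mice and 57.3, 50.4, 48.4 and 56.7 CPM in home cage caffeine mice, and after learning 52.6, 45.0, 44.8 and 45.8 CPM under water and 43.4, 48.2, 42.0 and 39.6 CPM under caffeine. For C1qc, home cage mice had 55.1, 46.8, 49.6 and 45.7 CPM under water and 54.9, 48.7, 46.7 and 51.2 CPM under caffeine, and learning mice had 48.6, 46.1, 41.6 and 38.4 CPM under water and 44.3, 47.6, 43.4 and 39.0 CPM under caffeine. In each chain the lowest level was in a learning mouse and the highest in a home cage mouse, and the conditions overlapped. The average responses were -0.20 for C1qa (SE 0.06, adjusted p = 0.0439), -0.17 for C1qb (SE 0.05, adjusted p = 0.0557) and -0.19 for C1qc (SE 0.06, adjusted p = 0.0521) on the log2 scale. Exact permutation tests of 8 mice against 8 gave p = 0.00357 for C1qa, 0.0172 for C1qb and 0.00497 for C1qc. The correction took C1qa to -0.08 (adjusted p = 0.302), C1qb to -0.06 (0.457) and C1qc to -0.09 (0.265). With each mouse left out in turn and no correction, C1qa was called in 15 of 16 fits, C1qc in 11 and C1qb in 7.

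The log2 ratio of C1qb to C1qa CPM averaged -0.12 ± 0.07 in home cage water, -0.09 ± 0.07 in home cage caffeine, -0.04 ± 0.10 in learning water and -0.09 ± 0.08 in learning caffeine mice (SD, n = 4 each). For C1qc to C1qb the same groups averaged 0.03 ± 0.07, -0.08 ± 0.05, -0.11 ± 0.12 and 0.01 ± 0.03. Between home cage and learning water mice the ratio of C1qc to C1qb moved by 0.14, close to the size of the average response of C1qb itself, and these ratios were not tested.

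P2ry12, Tmem119 and Csf1r are microglial membrane proteins, and none of them was called. P2ry12 lay between 39.6 and 50.6 CPM in home cage mice (means 47.2 ± 5.14 under water and 45.8 ± 3.75 under caffeine) and between 37.6 and 51.0 CPM in learning mice (43.9 ± 5.47 and 44.2 ± 2.15). Its average response was -0.08 (95% interval -0.21 to 0.06, adjusted p = 0.470). Tmem119 averaged 26.8 ± 2.41 and 27.8 ± 1.74 CPM in home cage mice and 27.5 ± 1.51 and 29.2 ± 2.62 CPM in learning mice, and its response was 0.06 (-0.06 to 0.17, adjusted p = 0.538). Csf1r (chr18:61100598-61132149, plus strand) averaged 107.6 ± 6.49 and 111.2 ± 7.86 CPM in home cage mice and 110.5 ± 4.26 and 104.5 ± 7.92 CPM in learning mice, with a response of -0.03 (-0.12 to 0.07, adjusted p = 0.765). The lower ends of the Csf1r and Tmem119 intervals lie above the estimates of the 6 genes that fell, whereas that of P2ry12 holds the estimates of Cx3cr1, Trem2 and the C1q chains. These intervals were taken before the length and GC correction. With the correction Trem2 and the C1q chains had -0.09 to -0.06, inside the uncorrected Csf1r interval, while Cx3cr1 and Aif1 stayed below it. Intervals with the correction are not given here. Differences between the genes were not tested.

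**Figure D1:**
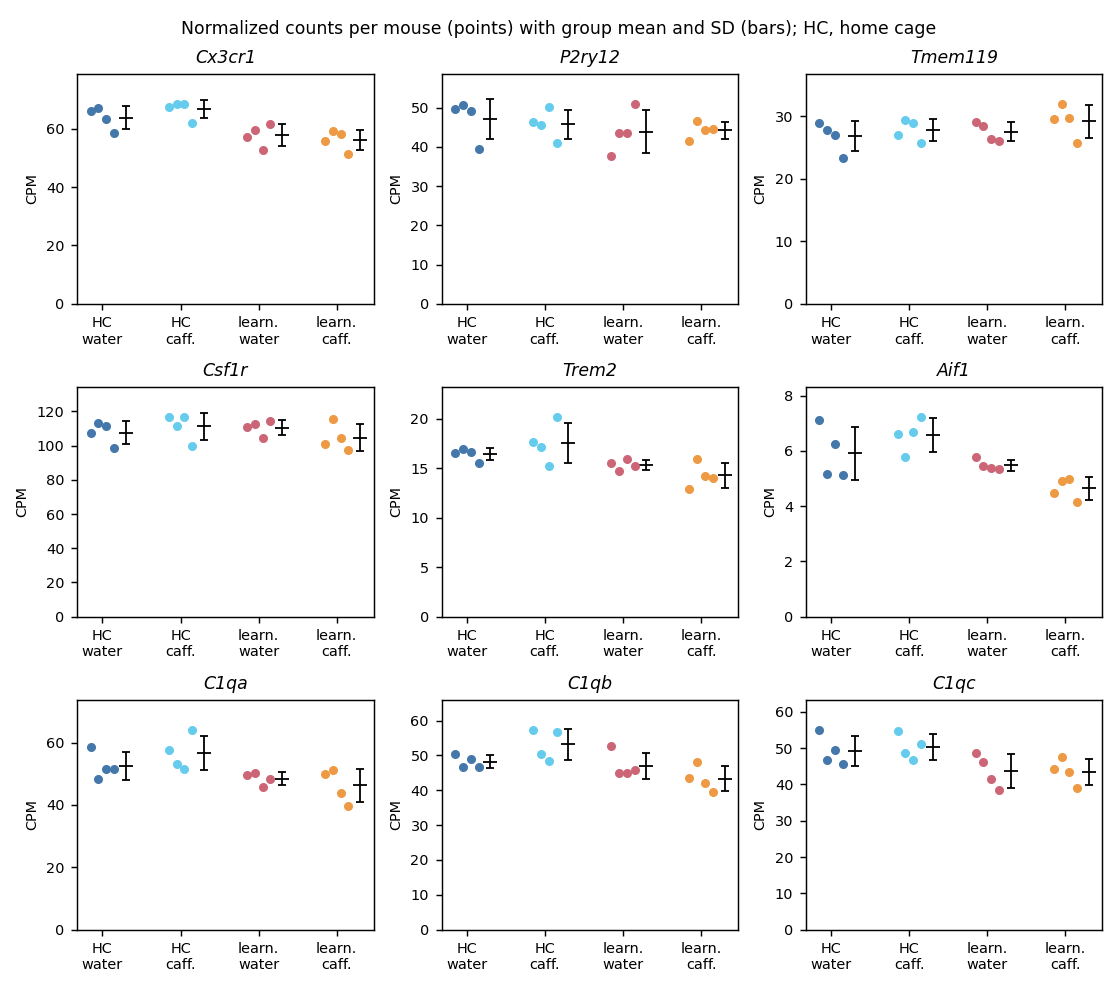
Levels of the 9 genes in CPM (y axes, from 0) by group (x axes; HC, home cage; learn., learning; caff., caffeine). Points are mice and black bars the mean and SD of 4 mice; every gene's groups overlap under water, and under caffeine the learning mice lie wholly below the home cage mice for Cx3cr1, Aif1, C1qa and C1qb.

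Several other measures differed between home cage and learning mice as well. The mitochondrial share was 3.46 to 4.49% in home cage and 3.23 to 3.59% in learning mice. Of 8 choroid plexus genes 7 were called lower after learning (median -1.08 on the log2 scale). Their summed level was highest in home cage water mice (301 to 2330 CPM, median 1029). It was 189 to 490 CPM in home cage caffeine (median 241), 161 to 430 CPM in learning water (307) and 115 to 201 CPM in learning caffeine mice (162). Home cage caffeine and learning water mice thus overlapped. Gfap, an astrocyte filament gene, was the only one called of 8 astrocyte genes (log2 fold change -0.25, adjusted p = 0.0121), Cldn5 the only one of 6 endothelial genes (-0.34, adjusted p = 0.0654), Nrgn the only one of 8 neuronal genes (-0.15, adjusted p = 0.0789) and Folr2 the only one of 10 genes of border macrophages (-0.82, adjusted p = 0.0655). Folr2 was near the floor, at 0.335 CPM on average. None was called of 7 oligodendrocyte, 5 oligodendrocyte precursor, 5 thalamus or 6 tested blood cell genes. With the length and GC correction 7 choroid plexus genes were again called lower, while Cldn5 and Nrgn were not. The part of these measures in the microglial falls was not tested. With home cage caffeine mouse 17, learning water mouse 24 and home cage water mouse 20 left out together, 5 of the 9 genes were still called lower on average and C1qa was not (adjusted p = 0.115).

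Under caffeine, 5 of the 9 genes were called lower after learning, against 2.13% of all genes. With the length and GC correction on principal transcripts 2 were, Cx3cr1 (-0.28, adjusted p = 0.0104) and Aif1 (-0.37, 0.0616), against 1.85% of all genes. C1qb (-0.16, 0.157), C1qa (-0.14, 0.246) and Trem2 (-0.16, 0.288) were not. With the longest transcript of each gene instead, 3 were called: Cx3cr1 (-0.27, adjusted p = 0.0151), Trem2 (-0.33, 0.04155) and Aif1 (-0.36, 0.0742). The values that follow are without the correction. Aif1 fell most, by 0.50 on the log2 scale (SE 0.11, adjusted p = 0.0258), from 6.57 ± 0.60 to 4.64 ± 0.40 CPM (SD, n = 4 each). C1qb fell from 53.2 ± 4.47 to 43.3 ± 3.60 CPM (log2 fold change -0.30, SE 0.07, adjusted p = 0.0392) and Cx3cr1 from 66.6 ± 3.09 to 56.1 ± 3.43 CPM (-0.25, SE 0.06, adjusted p = 0.0430). The lipid receptor gene Trem2 fell from 17.55 ± 2.04 to 14.3 ± 1.24 CPM (-0.30, adjusted p = 0.0590), and C1qa from 56.6 ± 5.57 to 46.3 ± 5.39 CPM (-0.29, adjusted p = 0.0729). For C1qc the difference was -0.21 (adjusted p = 0.178), for Csf1r -0.09 (0.471), for P2ry12 -0.05 (0.797) and for Tmem119 0.07 (0.631). In Cx3cr1, Aif1, C1qa and C1qb every learning caffeine mouse lay below every home cage caffeine mouse, 4 of 9 genes against 5.24% of all genes. The exact permutation p was 0.0286 for each of these 4, the smallest that 4 mice against 4 can give.

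Besides the correction, these calls under caffeine depended on individual mice. Without home cage caffeine mouse 2, or without learning caffeine mouse 40, 1 gene was still called, which was Aif1. Without home cage caffeine mouse 17 or without learning caffeine mouse 30, Cx3cr1 and Aif1 (2 genes) were called, and without learning caffeine mouse 22 Aif1, C1qa and C1qb (3 genes). The log2 fold change of Aif1 stayed between -0.56 and -0.45 and was called in 16 of 16 fits with a mouse left out, and Cx3cr1 stayed between -0.28 and -0.20 and was called in 13 of 16.

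Under water none of the 9 genes was called after learning by edgeR's quasi-likelihood test or by DESeq2, against 0.970% of genes called over the whole table, with 0.331% called lower. The largest differences were -0.17 for C1qc (95% interval -0.34 to 0.00, unadjusted p = 0.0522, adjusted p = 0.434) and -0.14 for Cx3cr1 (-0.27 to -0.01, unadjusted p = 0.0351, adjusted p = 0.379), the only member with an unadjusted p under 0.05 (11.8% of all genes). C1qa differed by -0.11, P2ry12 by -0.10, Aif1 by -0.10, Trem2 by -0.10 and C1qb by -0.03, while Csf1r (0.04) and Tmem119 (0.04) had positive values. Every member's groups overlapped here, whereas 3.12% of all genes lay wholly lower and 3.87% wholly higher after learning.

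Whether the responses under caffeine and water differed was tested as an interaction, and none of the 9 genes was called, with 0.00% of all genes called. At an unadjusted p under 0.05 there were 2 of the 9, against 3.63% of all genes. They were Aif1, with a response lower by 0.40 under caffeine (95% interval -0.74 to -0.07, unadjusted p = 0.0209, adjusted p = 1), and C1qb, lower by 0.26 (-0.48 to -0.05, unadjusted p = 0.0190, adjusted p = 1). The C1qb value includes learning water mouse 24, at 52.6 CPM against 44.8 to 45.8 CPM in the rest of its group. With a mouse left out, the C1qb response under water ranged from -0.0876 to 0.00174, and again no member was called for the difference. The difference for C1qb without single mice is not given here. For Cx3cr1 the difference between the responses was -0.10 (-0.29 to 0.08), so the data do not separate its 2 responses.

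**Figure D2:**
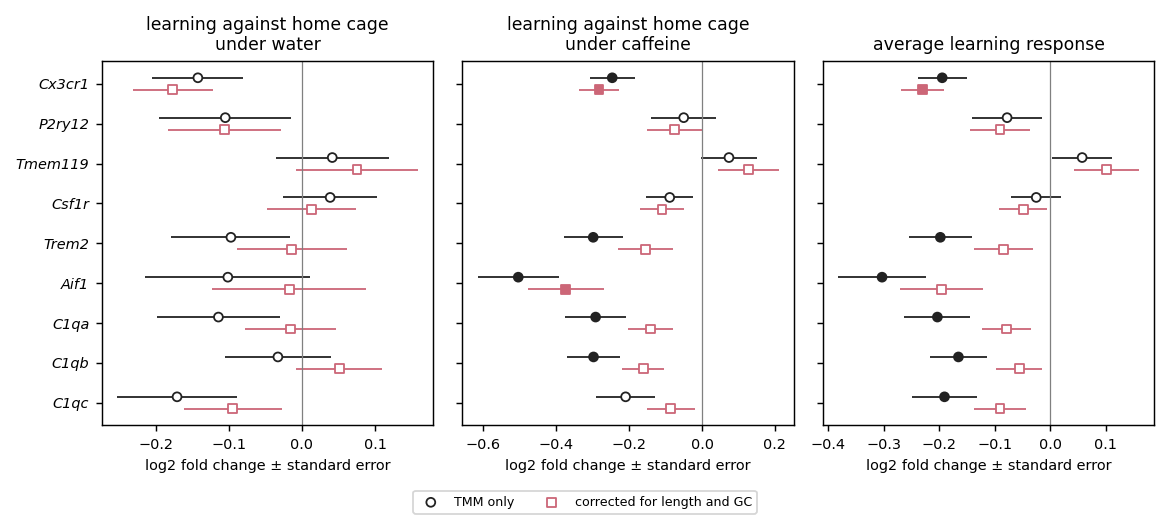
Learning minus home cage on the log2 scale (x axes, ± standard error) for the 9 genes under water, under caffeine and averaged. Black circles are values after TMM scaling only, red squares after a further correction for transcript length and GC content, and filled symbols have an adjusted p under 0.1; only Cx3cr1 is filled on both scales in the averaged panel.

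Caffeine against water, at rest or after learning, gave no call among the 9 genes, with 0.00% of all genes called in each comparison by edgeR. DESeq2 called none of the 9 either, but 19 genes of the whole table in the home cage and 6 after learning. No member had an unadjusted p under 0.05 in the home cage (3.57% of all genes did), and 1 did after learning (3.93% of all genes). In home cage mice 8 of the 9 genes had positive values, from 0.03 for C1qc to 0.16 for Aif1, with C1qb at 0.14 (95% interval -0.01 to 0.30, unadjusted p = 0.0633), and P2ry12 stood at -0.04. After learning, Aif1 was the member with the largest difference, -0.24 under caffeine (-0.48 to -0.00, unadjusted p = 0.0472, adjusted p = 0.999), and its 4 learning caffeine mice (4.15 to 5.00 CPM) lay below its 4 learning water mice (5.34 to 5.77 CPM). It was the only member of which this held, and 1.35% of all genes did the same. C1qb had -0.12 (-0.27 to 0.03) and Trem2 -0.10 (-0.27 to 0.07) after learning, and Tmem119 had 0.09 (-0.07 to 0.25). Averaged over home cage and learning mice, the caffeine effect was called in none of the 9 (0.00% of all genes by edgeR, 16 genes by DESeq2) and none had an unadjusted p under 0.05, as 4.07% of all genes did. These averages ran from -0.04 for Aif1 to 0.07 for Tmem119. Each group of mice enters several of these comparisons, so the values are not independent of one another.

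Transcript length moved with the falls. Of the 6 genes called lower, all but Cx3cr1 have short principal transcripts, from 875 bases in Aif1 to 1203 in C1qc, whereas Cx3cr1 has 4493, Csf1r 4701, P2ry12 2344 and Tmem119 2242. Over 13314 well-expressed genes, the trend of each library with length and GC content predicted for the average learning response -0.12 for C1qa, -0.11 for C1qb, -0.10 for C1qc, -0.11 for Trem2 and -0.11 for Aif1 on the log2 scale, but 0.04 for Cx3cr1. It predicted -0.05 for Tmem119, which measured 0.06. Among the genes called, GC content was 59.5% in C1qa, 57.5% in C1qc and Trem2, 57.4% in C1qb, 51.4% in Aif1 and 50.3% in Cx3cr1. Among those not called, it was 59.1% in Tmem119, 54.5% in Csf1r and 38.6% in P2ry12. Length and GC content were corrected together, and the part of each was not tested. With these trends taken out, the values given above for each gene were obtained. Trem2 has an annotated transcript of 4784 bases beside the principal one of 1088, and with the longest transcript of each gene used instead it was called at -0.23 (adjusted p = 0.0261). The origin of this trend was not tested.

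Of 36 pairs of genes, 32 had a positive Pearson's r of log2 CPM over the 16 mice (median 0.526, or 0.32 with the group means subtracted). A permutation p adjusted over the 36 was under 0.05 for r in 18 pairs, and for Spearman's rho in 18. The permutations moved mice across groups, so differences between groups that 2 genes share enter these p values. C1qa and C1qb had r = 0.874 (adjusted permutation p = 0.00072) and rho = 0.815 (0.00261), and r was 0.767 without the 2 mice farthest from the median of C1qa. C1qa and C1qc had r = 0.823 (adjusted permutation p = 0.0012) and rho = 0.847 (0.00126), with r = 0.822 without the 2 farthest mice. Trem2 followed C1qb (r = 0.817, adjusted permutation p = 0.0012, rho = 0.785, 0.00324), with r = 0.795 without the 2 farthest mice. With the group means subtracted, r was 0.766 for C1qa and C1qb, 0.713 for C1qa and C1qc, and 0.601 for Trem2 and C1qb.

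Cx3cr1 and Csf1r, whose transcripts are long, had r = 0.646 (adjusted permutation p = 0.0223) and rho = 0.653 (0.0201), with r = 0.519 without the 2 mice farthest from the median of Cx3cr1 and 0.850 with group means subtracted. Over the 16 mice Cx3cr1 was as close to Aif1, with r = 0.688 (adjusted permutation p = 0.0124), rho = 0.679 (0.0177) and r = 0.623 without the 2 farthest mice. Its r was 0.556 with Trem2, 0.629 with C1qa, 0.615 with C1qb and 0.637 with C1qc, each with adjusted permutation p between 0.0223 and 0.0493, but with group means subtracted it was 0.224 with Aif1 and -0.0922 with Trem2. P2ry12 had r = -0.00166 with C1qa (adjusted permutation p = 0.995) and rho = 0.0471 (0.916). Within groups, the values with the C1q chains were 0.14 to 0.24 for Cx3cr1 and 0.02 to 0.28 for Csf1r. Tmem119 had 0.72 with Csf1r and also 0.59 with C1qc, 0.41 with Aif1, 0.32 with C1qb and 0.29 with C1qa. The mice share library depth and the length trend described above with every gene of their library, and the part of these in the correlations was not tested.

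**Figure D3:**
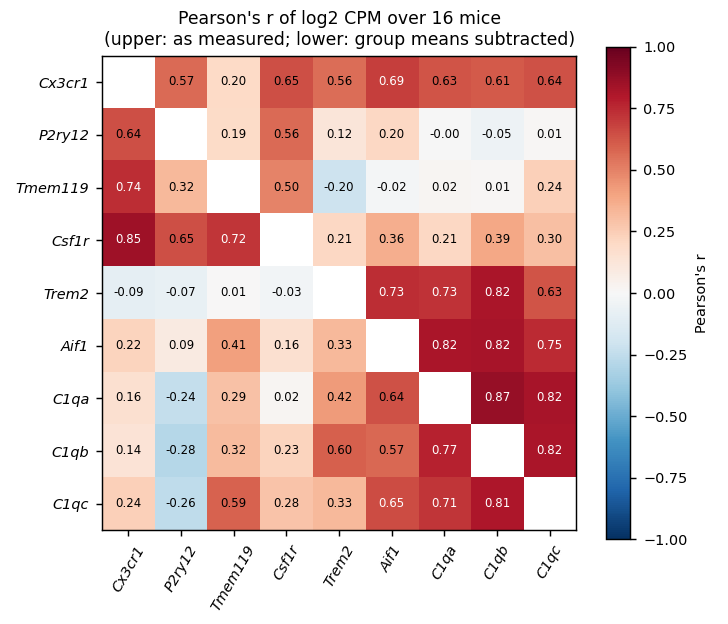
Pearson's r of log2 CPM between the 9 genes over the 16 mice, as measured above the diagonal and with the 4 group means subtracted below it (color scale from -1 to 1). Below the diagonal, values are positive among Cx3cr1, P2ry12, Tmem119 and Csf1r and among Trem2, Aif1 and the C1q chains. Tmem119 is also positive with Aif1 (0.41) and with the C1q chains (0.29 to 0.59). With Aif1 and the C1q chains, Cx3cr1 (0.14 to 0.24) and Csf1r (0.02 to 0.28) are positive too. P2ry12 is negative with the C1q chains (-0.28 to -0.24).

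The genes whose levels were most like the mean z score of the 9 genes over the 16 mice, among 13319 ranked, were Abi3 (r = 0.889), Fcer1g (0.860), Cmtm6 (0.858), Bin2 (0.846), Laptm5 (0.837), Cmss1 (0.835), Gfap (0.835), Lyz2 (0.829), Siglech (0.822) and Olfml3 (0.821). Abi3, Fcer1g, Laptm5, Lyz2 and Siglech are expressed by microglia or other myeloid cells, and Gfap by astrocytes. With group means subtracted, the values ran from 0.565 for Siglech to 0.797 for Cmtm6.

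The ligands of these receptors did not pass the test for learning. Cx3cl1, the ligand of Cx3cr1, had an average response of -0.00 (adjusted p = 0.986), and the Csf1r ligands Csf1 and Il34 had 0.08 (0.351) and 0.07 (0.644). Apoe, a lipid carrier bound by Trem2, had -0.08 (0.321). Tyrobp, the adaptor that carries the Trem2 signal, was the only one called of 7 ligands and partners: it averaged 19.0 and 20.5 CPM in home cage water and caffeine mice and 17.1 and 16.4 CPM in learning water and caffeine mice, a response of -0.24 (SE 0.06, adjusted p = 0.0190). Like Trem2 it lost its call with the length and GC correction (-0.08, adjusted p = 0.300). None was called of 9 transcription factors and signals that maintain microglia, among them Spi1 (-0.22, adjusted p = 0.214) and Irf8 (-0.20, 0.148).

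Of 19 further genes of homeostatic microglia, 9 were called lower and 1 higher in the average response (6.71% lower and 7.81% higher over all genes), with a median of -0.15. The ADP receptor gene P2ry13 fell most (-0.32, adjusted p = 0.00448), followed by Ly86 (-0.27, 0.00804), Olfml3 (-0.23, 0.0285), Cd33 (-0.23, 0.0337), Hpgds (-0.22, 0.0600) and Siglech (-0.20, 0.00672). Fcrls (-0.18, 0.0875), Lpcat2 (-0.18, 0.0319) and the complement receptor subunit Itgam (-0.17, 0.0929) also fell. Mertk, a receptor for the uptake of dying cells, rose (0.19, adjusted p = 0.0887). With the length and GC correction 8 of the 19 were called lower (5.15% of all genes), P2ry13 (-0.32, adjusted p = 0.00293) and Siglech (-0.19, 0.00728) among them, and Mertk was not called (0.15, 0.194). Under caffeine 8 of the 19 were called lower (2.13% of all genes), as were 8 with the correction (1.85%). Under water none was called, and 1 with the correction, P2ry13.

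Among 18 genes shared by myeloid cells, 4 were called lower in the average response (6.71% of all genes): Fcer1g (-0.28, adjusted p = 0.0151), Cd53 (-0.27, 0.00907), Tyrobp and Cd68 (-0.22, 0.0996). Only Cd53 was still called with the length and GC correction (-0.24, adjusted p = 0.00981). Of 20 tested genes of disease-associated microglia, B2m (-0.24, 0.00658), Cd63 (-0.29, 0.0104), Ctsz (-0.24, 0.0361) and Cd9 (-0.26, 0.0668) fell and Ank rose (0.10, 0.0529), 4 lower and 1 higher beside 6.71% and 7.81% of all genes. With the correction Cd9 lost its call (-0.19, 0.168) and Ctsl was called lower (-0.14, 0.0866). Several of these, such as B2m and Cd9, are also made by other brain cells. Of 12 tested genes of inflammatory cytokines and sensors, none was called lower, and Nfkbia (0.26, adjusted p = 0.0735) and Tlr7 (0.32, 0.0865) were called higher, beside 7.81% of all genes. With the correction Tlr7 was not called (0.29, 0.111).

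**Figure D4:**
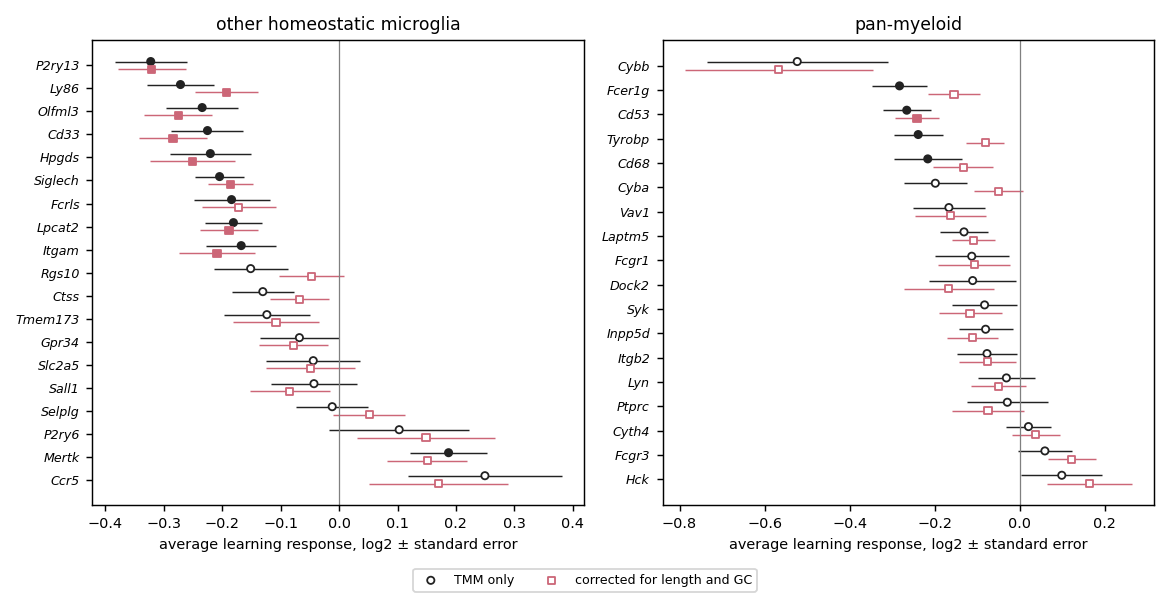
Average learning response (x axes, log2 fold change ± standard error) of 19 further genes of homeostatic microglia (left) and 18 genes shared by myeloid cells (right), after TMM scaling only (black circles) and after correction for transcript length and GC content (red squares). Filled symbols have an adjusted p under 0.1; on the left 9 genes are filled on the lower side in black and 8 in red, on the right 4 in black and 1 in red.

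In the complement pathway, the genes of the proteases that C1q activates, C1ra (0.28, adjusted p = 0.367) and C1s1 (0.10, 0.786), were not called, nor were C3 (0.14, 0.740), C4b (0.05, 0.805) or the receptor gene C3ar1 (0.02, 0.951). Of 14 tested proteases and components, none was called lower (6.71% of all genes) and 2 were called higher (7.81%): C4a, a near copy of C4b whose reads may be split with it (0.50, 0.0324), and the alternative pathway gene Cfp (0.39, 0.0378). C4a rested on 1.74 CPM on average, C1ra on 1.07, C1s1 on 0.764 and C3 on 2.04. At such low levels the lack of a call does not show that a gene was unchanged. With the length and GC correction Masp1, a protease gene of the lectin pathway, was called lower (-0.21, 0.0883, from -0.16, 0.209 without it). Among 14 tested inhibitors, Cd46 (-0.40, 0.0148) and Clu (-0.12, 0.0931) fell, and Cr1l (0.19, 0.0752), Csmd1 (0.23, 0.0280) and Csmd2 (0.27, 0.0295) rose, 2 lower and 3 higher beside the same shares of all genes. Clu was not called with the correction (-0.06, 0.333). Of 9 tested receptors Itgam was the only one called. Of 8 tested genes for proteins with a C1q domain, mostly synaptic organizers, C1qtnf4 fell (-0.21, 0.0665) and the others were not called. With the correction C1qtnf4 was not called either (-0.08, 0.266).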

How the data were processed

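RNA-Seq was measured in dorsal hippocampus, with 4 mice in each of 4 groups taken from the sample labels. The authors deposited their data as raw counts for each Ensembl gene: stranded mRNA libraries from 500 ng of RNA were sequenced as single-end 50 base reads, mapped to mm10 with STAR and Bowtie 2, kept when uniquely aligned, and counted with HTSeq-count 0.6.1p1 on Ensembl release 90, in union mode. The counts are not normalized, replicates are not pooled and no molecular identifiers were used. The strand setting is not given in the sources used here. The study tested with DESeq2. All columns of values were used.

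From these counts, edgeR 4.0.16 (R 4.3.3) was run with TMM scaling, filterByExpr (17830 of 35328 genes kept), 1 model with a mean per group over 16 libraries, and the quasi-likelihood test, with genes called at a Benjamini-Hochberg adjusted p under 0.1 over all genes. There were 7 contrasts. Exact permutation tests on CPM were two-sided (70 assignments for 4 mice against 4, 12870 for 8 against 8), and correlations used 100000 permutations of log2 CPM (prior count 2). Pairs of libraries within a group differed by more than counting noise (chi-square per degree of freedom 5.47 to 32.1 over 24 pairs). Counting errors cover counting only. Code was tested on simulated data.

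Alternatives were DESeq2 1.42.0 (Wald test, or its size factors in edgeR), a threshold of 0.05, a count filter of 1 in total or of 10 per library, the 8 libraries of a comparison alone, and each library left out in turn. Added after seeing the data were 3 libraries left out together and an offset per library for the length and GC content of principal or longest transcripts (GENCODE M21, 17802 genes with a length, splines fitted on genes with a mean log2 CPM of at least 1). The members, lists, tests and alternatives were chosen with earlier results of these data known, so none is independent support. Named genes were the 9 members, fixed partners, list genes called in any comparison (a few in full), and the 10 genes most correlated with the mean z score of the members. A gene of the homeostatic list is not reported here.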

Additional observations from a re-analysis of the deposited data

Results flagged for a closer look

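Among 36 sets of 4 mice (9 genes in 4 groups), 3 had a mouse far from the other 3 by Dixon's test, and chance gives about 1 in 20. Cx3cr1 in home cage caffeine mouse 17 was 62.1 CPM, against 67.5 to 68.5 CPM in the rest of its group, with a gap of 0.851 of the range. This is the mouse with the highest mitochondrial share, and its Trem2, Aif1 and C1qa were the highest of all 16 mice. P2ry12 in home cage water mouse 20 was 39.6 CPM, against 49.1 to 50.6 CPM in its group (gap 0.862). C1qb in learning water mouse 24 was 52.6 CPM, against 44.8 to 45.8 CPM in its group (gap 0.872). Both of these mice also stood apart in their choroid plexus or oligodendrocyte genes, and the part of that in these values was not tested.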

How the results depend on the processing

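For the average learning response, 6 members were called with DESeq2's test, with its size factors and with both other count filters, 5 without the 3 libraries and 4 at an adjusted p under 0.05. The length and GC correction left 2 (longest transcripts) or 1 (principal transcripts), and leaving out each library in turn left 3 (without home cage water mouse 6) to 6. Cx3cr1 and Aif1 were called in 16 of 16 of these fits, C1qa and Trem2 in 15, C1qc in 11 and C1qb in 7. Trem2 lost its call without learning caffeine mouse 22 (adjusted p = 0.103) and C1qa without home cage water mouse 6 (0.105). C1qc lost it without home cage water mouse 6, home cage caffeine mouse 2, learning water mice 36 or 38 or learning caffeine mouse 40 (0.102 to 0.119). C1qb lost it without these or home cage water mouse 11, home cage caffeine mouse 17, learning water mouse 33 or learning caffeine mouse 30 (0.102 to 0.118). Under caffeine, 5 became 3 without the 3 libraries, with the 8 libraries of the comparison alone, at an adjusted p under 0.05 or with longest transcripts, 2 with principal transcripts, and 1 to 5 with each library left out. Causes other than fewer mice or a stricter threshold were not tested. Uncalled values changed sign for C1qb under water with the correction (0.059 and 0.051) and without the 3 libraries for Csf1r under water (-0.000444) and Tmem119 on average (-0.0015) and under water (-0.045). With a library left out, Aif1 under water ranged from -0.163 to 0.00789, C1qb from -0.0876 to 0.00174, Tmem119 from -0.0178 to 0.0906, Csf1r on average from -0.0475 to 0.00241 and P2ry12 under caffeine from -0.0962 to 0.00202. Over all genes, DESeq2 called 1561 under caffeine and 427 under water after learning, against 942 and 173 with edgeR, and 6 for the difference between the responses. The filter of 1 count called 34 genes for caffeine in the home cage, 8 after learning, 9 for the difference and 290 after learning under water. At an adjusted p under 0.05 the calls after learning were 1384 of 2590 on average, 449 under caffeine and 70 under water, with 8 libraries 617 and 85, and without the 3 libraries 1713 on average and 80 under water. No paired analysis was possible because the groups share no replicate number. With 4 mice a group, the median standard error was 0.10 on the log2 scale. In 1 treatment, responses near 0.1 could not be seen, and C1qc at -0.21 under caffeine (SE 0.08) was not called either.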
